A study of Mus musculus with 6 samples.

Results

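The 41 interferon-stimulated genes described here are genes that cells switch on when interferons bind their receptors. They were taken as a named set: 36 genes of the type I interferon response and 5 GTPases induced mainly by interferon gamma (Gbp2, Gbp3, Ifi47, Igtp and Irgm1). A probe was found for 39 of the 41 through the RefSeq accession that the arrays give for each probe. Mx1 and Mx2 were not matched to a probe here and are not analysed. Of the 39, 33 had a mean log2 intensity of at least 8 over the arrays and were tested among the 8582 genes that reached this level, 28 of them type I members and 5 gamma-induced GTPases. The other 6 are given as intensities at the end.

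Expression was measured on 6 single-colour Agilent arrays, 2 in each of 3 groups, in TEa cells, CD4+ T cells with a transgenic receptor of the Vα2 and Vβ6 chains. All donor cells were CD45.2+ and of C57BL/6 background, and all went on day -1 into CD45.1+ B6.SJL hosts that were given a Balb/c heart on day 0 and kept their own lymphocytes. The first group holds cells labelled Irf4-/- from hosts injected on days 0, 3 and 5 with checkpoint blockade, 200 µg of anti-PD-L1 plus 200 µg of anti-CTLA-4 (Irf4 KO blockade). The second holds cells labelled Irf4-/- from hosts injected on the same days with 400 µg of rat IgG (Irf4 KO IgG). The third holds wild-type cells from hosts labelled as given rat IgG, with no dose stated (WT IgG). Cells were sorted from the hosts' spleens on day 6, and each group has an array 1 and an array 2, where array 2 carries the repeat label, from experiments that the series calls independent.

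Type I interferons signal through Ifnar1 and Ifnar2 and the kinases Jak1 and Tyk2 to a complex that holds Stat2 and Irf9 and binds the interferon-stimulated response element (ISRE) in the promoters of antiviral genes. Interferon gamma, which T cells make themselves, signals through Ifngr1 and Ifngr2, acts on promoters that hold the gamma-activated sequence (GAS) and induces Irf1 and the large GTPases that act against pathogens inside cells. Many genes answer to both. Irf4, the factor named in the genotype, belongs to the same family of interferon regulatory factors and is induced in T cells by receptor signalling.

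Irf4 itself was at log2 levels of 11.09 and 11.14 in Irf4 KO blockade cells, 11.21 and 11.07 in Irf4 KO IgG cells and 9.61 and 9.81 in WT IgG cells. The Irf4 probe was therefore higher in both groups labelled Irf4-/- (by 1.43 ± 0.13 SE on the log2 scale for Irf4 KO IgG minus WT IgG, adjusted p = 0.0175 from limma, and 1.41 ± 0.13 SE, adjusted p = 0.0167, for Irf4 KO blockade minus WT IgG), although the Irf4 KO IgG minus WT IgG value turned to -1.28 when all detected genes were kept on an array-median scale. With WT array 1 or WT array 2 left out neither difference of Irf4 passed (limma adjusted p from 0.0654 to 0.1005), nor did that with blockade without blockade array 1 or 2 (adjusted p = 0.159 and 0.196). The sources used here do not say which part of Irf4 was deleted, so the probe does not check the labels, and the groups below are called by them. All 13 T cell identity genes with a probe were well above background on every array. Probes called well above background made up 39.96% and 34.8% of the total in Irf4 KO blockade cells, 65.8% and 75.2% in Irf4 KO IgG cells and 37.6% and 40.8% in WT IgG cells. Summed B cell marker intensity over 14 genes was 827 and 820 in Irf4 KO blockade cells, 5086 and 25345 in Irf4 KO IgG cells and 661 and 600.1 in WT IgG cells. The 12 markers of dendritic and plasmacytoid dendritic cells, Bst2 among them, summed to 13054 and 10394 in Irf4 KO blockade cells. They summed to 27678 and 21461 in Irf4 KO IgG cells and 12900 and 17304 in WT IgG cells. In the same order, the 9 CD8 T and NK cell markers summed to 1869 and 2223, 2142 and 5902, and 1424 and 1390. The 7 plasma cell markers gave 2255 and 2057, 2748 and 5510, and 2865 and 3767.5. Markers of further cell types also differed between arrays, as given beside the results they touch.

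The promoters bear on how the set is defined, and sequence is shown for members whose values the results turn on. RefSeq promoters (build GRCm38.p6, from 250 bases before to 50 after the start) were on hand for 31 of the 41 members. They were searched on both strands for the ISRE core GAAANNGAAA and for the GAS TTCNNNGAA, which reads the same on both strands and is a separate motif that may overlap the first. An ISRE core was present in 17 of the 31 members (54.8%) and in 3.99% of the 27025 genes with a promoter, and a GAS in 7 members (22.6%) and 9.55% of genes. By arm, the ISRE core was found in 13 of 26 type I members and in 4 of 5 gamma-induced GTPases, and the GAS in 6 type I members and in 1 GTPase, Igtp. The 170 bases before the start of 6 members follow, 5′ to 3′ on the strand of the gene, with ISRE core and GAS matches in capitals (on the opposite strand the core reads as its reverse complement). They lie at chr4:156200819-156200988, minus strand (Isg15); chr19:34640719-34640888, plus strand (Ifit1); chr19:34583359-34583528, plus strand (Ifit3); chr3:142620493-142620662, plus strand (Gbp2); chr11:58199386-58199555, plus strand (Igtp); and chr5:114923070-114923239, plus strand (Oasl1).
Isg15: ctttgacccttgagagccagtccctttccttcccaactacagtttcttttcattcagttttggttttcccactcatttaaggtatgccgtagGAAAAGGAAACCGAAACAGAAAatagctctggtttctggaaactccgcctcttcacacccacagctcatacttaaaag
Ifit1: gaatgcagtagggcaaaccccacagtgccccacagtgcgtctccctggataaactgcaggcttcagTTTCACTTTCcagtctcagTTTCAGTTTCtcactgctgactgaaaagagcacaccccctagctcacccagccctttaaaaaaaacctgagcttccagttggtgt
Ifit3: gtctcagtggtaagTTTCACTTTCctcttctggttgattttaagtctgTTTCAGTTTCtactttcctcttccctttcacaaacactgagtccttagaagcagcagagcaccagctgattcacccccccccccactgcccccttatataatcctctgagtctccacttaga
Gbp2: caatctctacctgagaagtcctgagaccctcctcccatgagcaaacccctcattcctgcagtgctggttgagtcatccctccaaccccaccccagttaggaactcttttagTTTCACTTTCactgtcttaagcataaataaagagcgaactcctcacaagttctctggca
Igtp: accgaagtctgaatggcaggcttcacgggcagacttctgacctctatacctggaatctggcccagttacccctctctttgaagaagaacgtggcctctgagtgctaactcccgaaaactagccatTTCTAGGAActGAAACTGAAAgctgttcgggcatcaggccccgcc
Oasl1: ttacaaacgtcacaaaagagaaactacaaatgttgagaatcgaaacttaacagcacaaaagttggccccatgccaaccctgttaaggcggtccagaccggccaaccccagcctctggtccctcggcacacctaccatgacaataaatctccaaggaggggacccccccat
Isg15 has 3 overlapping core matches in 1 run, Ifit1 and Ifit3 have 2 separate matches each, Gbp2 has 1, and Igtp has a GAS followed closely by an ISRE core. Oasl1 is shown as a member with neither in this window. Cmpk2 and Xaf1 have neither as well, and Ifitm3 has both motifs, but only after the start and so outside this window.

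Taken gene by gene, none of the 33 members passed the threshold (limma over 8582 genes, Benjamini-Hochberg adjusted p under 0.05) in any of the 3 comparisons, which share groups with each other. For Irf4 KO IgG minus WT IgG, 0 of 33 members passed against 1.86% of all genes, and 7 had an unadjusted p under 0.05 against 23.4% of all genes. For Irf4 KO blockade minus Irf4 KO IgG, 0 passed against 0.326%, and 6 had an unadjusted p under 0.05 against 28.5%. For Irf4 KO blockade minus WT IgG, 0 passed against 1.11%, and 7 had an unadjusted p under 0.05 against 19.2%. Members passed no more often than genes at large, and their standard errors were wider, with a median SE of 0.31 on the log2 scale against 0.15 over all genes.

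The median of the members lay above that of all genes in the 2 comparisons with blockade, of which the one against WT IgG rests on WT array 2, as described below. For Irf4 KO blockade minus Irf4 KO IgG the median log2 fold change over the members was 0.52, against 0.03 over all genes, and 29 of 33 were positive against 53.0% of genes. The 2 arrays of Irf4 KO blockade both lay above both arrays of Irf4 KO IgG for 24 members (34.0% of all genes do so), and for no member did both lie below (28.9% of all genes). Blockade minus WT IgG gave a median of 0.43 against 0.00, with 29 members positive (50.6% of all genes), 13 wholly above (27.7% of all genes) and 1, Ifi27l2a, wholly below (27.1%). Irf4 KO IgG minus WT IgG gave a median of -0.01 against -0.02 over all genes, with 16 members positive, 6 wholly above (23.1%) and 4 wholly below (29.2%), which is fewer than the background in each direction. These levels are relative to the other bright genes of an array. With all 28249 detected genes kept and each array scaled to its 75th percentile, the median over 39 members was 1.50 for Irf4 KO blockade minus Irf4 KO IgG with 30 members called higher, against a median of -0.11 over all genes and 27.9% of them called higher. On that scale Irf4 KO IgG minus WT IgG gave a median of -0.99 with 15 members called lower, against 0.01 over all genes and 27.4% of them called lower, while the Irf4 KO IgG arrays had brighter dim probes. The part of that brightness in these values was not tested. Markers of other cells, summed as intensities not scaled between arrays, differed between the same groups. The 15 monocyte and macrophage markers summed to 3504 and 2697 in Irf4 KO blockade cells, against 7256 and 7024 in Irf4 KO IgG cells. The 10 erythroid and platelet markers summed to 20607 and 12330 with blockade, 2737 and 99469 in Irf4 KO IgG and 325 and 1369 in WT IgG. The 8 neutrophil markers summed to 1147 and 5090 with blockade, 2787 and 68574 in Irf4 KO IgG and 778 and 1006 in WT IgG. For Irf4 KO blockade minus Irf4 KO IgG, 0 of the 13 T cell identity genes were positive and 0 passed (limma). Their median was -0.28, and 3 had an unadjusted limma p under 0.05, against 28.5% of all genes. The part of these cells in the members' values was not tested. As in any bulk sample, fewer cells of a type and less RNA per cell cannot be told apart.

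**Figure D1:**
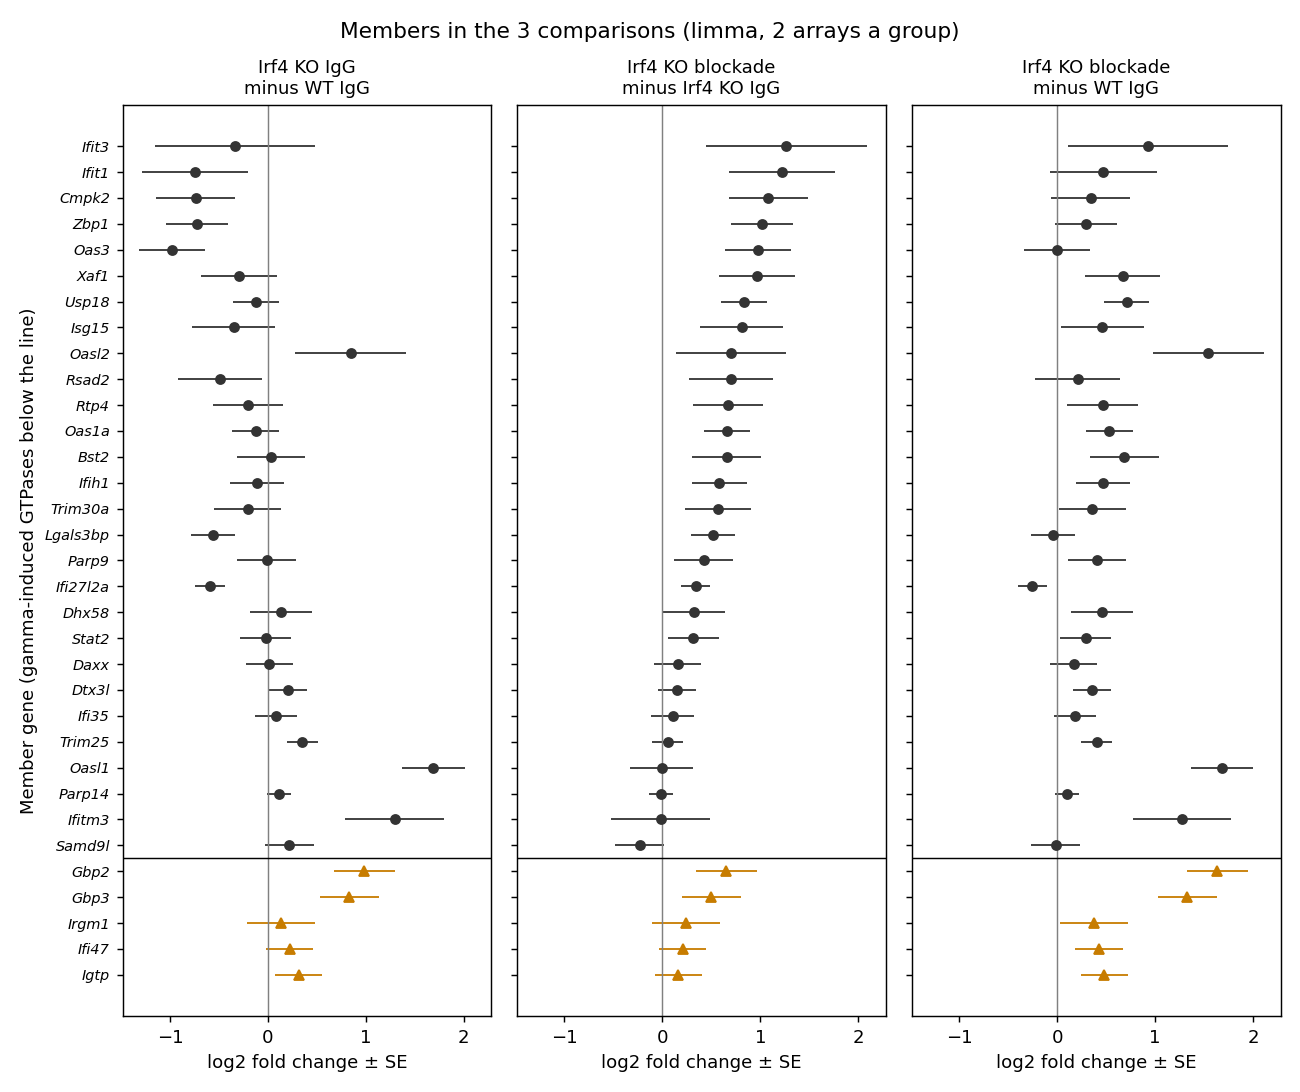
Log2 fold change of the 33 tested members (horizontal axis, bars are ± SE from limma, 2 arrays a group) in the 3 comparisons, with the 5 gamma-induced GTPases as triangles below the line. In the middle panel 29 of 33 members lie right of 0, while the left panel is spread around it.

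The arrays of the WT IgG group differed from each other across nearly the whole set. WT array 2 was below WT array 1 for 32 of the 33 members, the exception being Parp14, with a median difference of -0.91 on the log2 scale against -0.01 over all genes. The largest differences were in Ifit3 (-1.95), Oasl2 (-1.80), Ifit1 (-1.73) and Isg15 (-1.38). On array 2, 11 of the 33 (33.3%) were at least 2-fold lower, against 1.04% of all genes, while none was 2-fold higher, against 86 of the 8582 genes. In either direction 2.04% of all genes differed by this much. Seen from the other list, 89 genes were at least 2-fold lower on WT array 2 and members made up 12.4% of them. The medians were -0.92 for type I members and -0.80 for gamma-induced GTPases.

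In the other groups the members leaned the other way by less, with 7 of 33 lower on Irf4 KO blockade array 2 (49.6% of all genes) and 9 of 33 lower on Irf4 KO IgG array 2 (46.8%). Irf4 KO blockade array 2 minus array 1 had a median of 0.18 over the members, and none was 2-fold lower (0.454% of all genes) or 2-fold higher (0.233%). Irf4 KO IgG array 2 minus array 1 had a median of 0.12, with none 2-fold lower (2.73%) and 2 at least 2-fold higher (1.55%), Ifit3 by 1.76 and Ifitm3 by less. WT array 2 was the lowest of the 6 arrays for 22 members (14.2% of all genes) and the highest for none (13.5% of all genes). Blockade array 2 was the highest for 14 members (20.9% of all genes) and WT array 1 for 13 (18.1% of all genes).

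**Figure D2:**
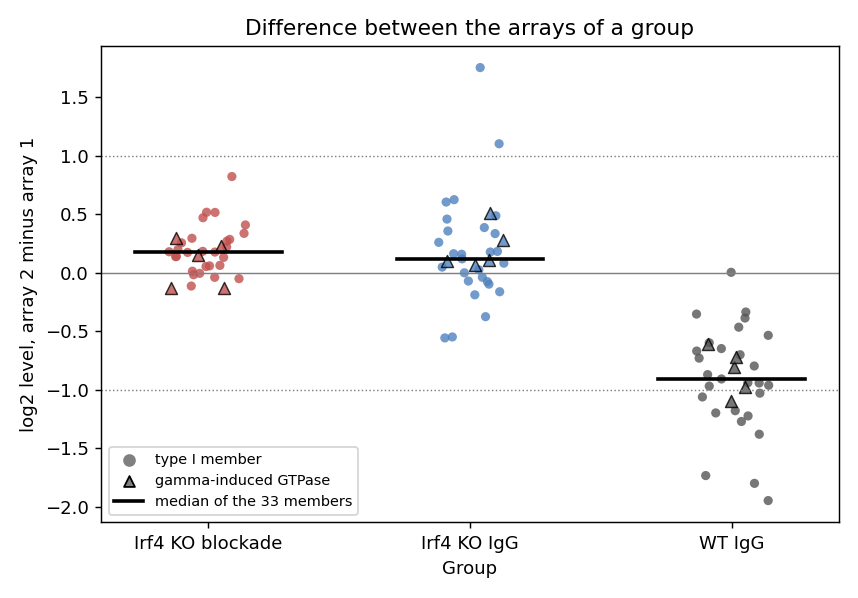
Log2 level on array 2 minus array 1 (vertical axis) for each of the 33 members in each group, circles for type I members, triangles for gamma-induced GTPases, black lines for medians, dotted lines at a 2-fold difference. The WT IgG points centre on -0.91, the Irf4 KO IgG points on 0.12 and the Irf4 KO blockade points on 0.18.

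The WT difference was also seen with the members' further probes and in each range of brightness. Further probes existed for 10 members, 12 probes in all, and each of the 12 was lower on WT array 2, with a median of -1.00 after the median of all genes was subtracted. Among members with a mean log2 level of 8 to 9 the median was -1.20 (6 members), from 9 to 10 it was -0.80 (7), from 10 to 12 it was -0.94 (9), and above 12 it was -0.65 (11), whereas the medians of all genes in these ranges lay between -0.02 and 0.00. All arrays were on 1 slide, in 2 rows of it. WT array 2 lay in row 1 with Irf4 KO IgG array 2 and Irf4 KO blockade array 1, and WT array 1 in row 2 with Irf4 KO IgG array 1 and Irf4 KO blockade array 2, and only in the WT group did the row separate the members by a median of over 0.2. Summed markers on WT arrays 1 and 2 were 396467 and 484817 for T cell identity, 661 and 600.1 for B cells, 4102 and 4415 for monocytes and macrophages, 778 and 1006 for neutrophils and 325 and 1369 for erythroid cells and platelets. Erythroid and platelet markers thus had the widest ratio between the WT arrays, and their part in the members' difference was not tested.

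**Figure D3:**
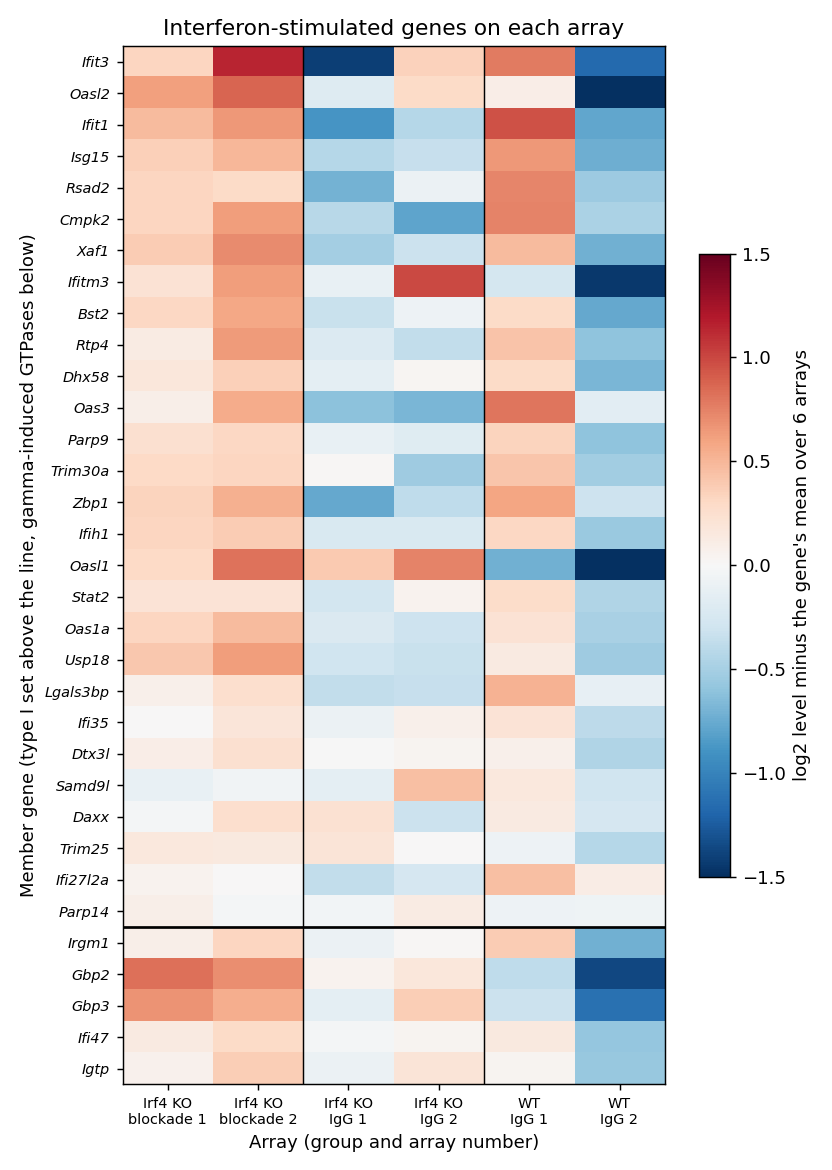
Log2 level of each tested member minus its mean over the 6 arrays (colour, red above and blue below), arrays in columns and members in rows, ordered by the WT IgG difference within each arm. WT IgG array 2 is blue in nearly every row, while WT IgG array 1 and both blockade arrays are mostly red.

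The direction of the set depended on the WT array used as comparator. Against WT array 1 alone, the mean of the Irf4 KO blockade arrays gave a median of -0.03 with 15 of 33 members positive, and against WT array 2 alone a median of 0.88 with 32 positive. The Irf4 KO IgG mean gave -0.46 with 7 positive against WT array 1, and 0.34 with 28 positive against WT array 2. All genes gave medians between -0.03 and 0.02 in these 4 settings. Within slide row 1, Irf4 KO IgG minus WT IgG was 0.43 and Irf4 KO blockade minus WT IgG 0.81 over the members, and within row 2 they were -0.44 and 0.07. Irf4 KO blockade minus Irf4 KO IgG, which uses no WT array, was 0.33 within row 1 (26 of 33 positive) and 0.62 within row 2 (32 of 33 positive).

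**Figure D4:**
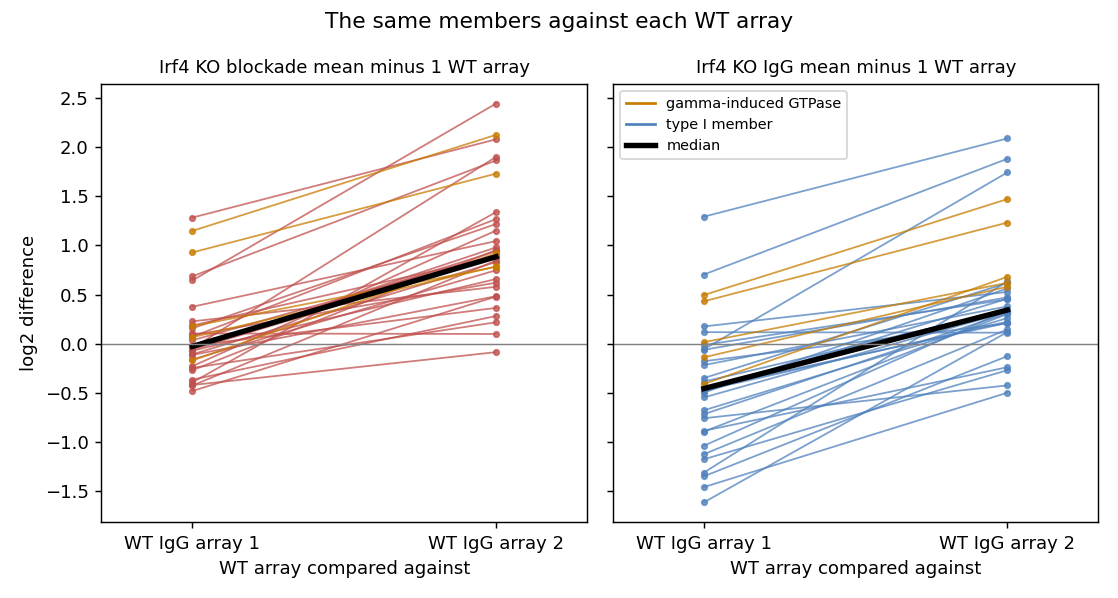
Difference on the log2 scale of each member between the mean of a group and WT IgG array 1 or WT IgG array 2 (horizontal axis), with Irf4 KO blockade in the left panel and Irf4 KO IgG in the right. Black lines are medians, and every member but Parp14 is further up on the side of WT array 2.

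The IFIT proteins bind viral RNA and block its translation, and both tested members were among those with the largest difference between the WT arrays. Ifit1 was at log2 9.15 and 9.33 in Irf4 KO blockade cells, 7.79 and 8.25 in Irf4 KO IgG cells and 9.63 and 7.90 in WT IgG cells. Blockade and Irf4 KO IgG did not overlap, and the WT arrays lay on either side of both blockade values. The difference was 1.22 ± 0.54 SE for Irf4 KO blockade minus Irf4 KO IgG (limma adjusted p = 0.205) and -0.75 ± 0.54 for Irf4 KO IgG minus WT IgG (adjusted p = 0.452). Ifit3 was at 9.43 and 10.25 with blockade, 7.70 and 9.45 with IgG in Irf4 KO cells and 9.89 and 7.94 in WT cells. Its Irf4 KO IgG arrays were nearly as far apart as its WT arrays, and all groups overlapped.

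Isg15, a ubiquitin-like protein that is joined to other proteins, stood at 13.84 and 13.97 in Irf4 KO blockade cells, 13.05 and 13.14 in Irf4 KO IgG cells and 14.13 and 12.75 in WT IgG cells. Usp18, the protease that removes Isg15 and damps the type I receptor, stood at 11.33 and 11.55 with blockade, 10.63 and 10.59 in Irf4 KO IgG cells and 11.06 and 10.40 in WT IgG cells. Both genes were higher on each blockade array than on each Irf4 KO IgG array. Usp18 had the lowest adjusted p of the members in that comparison, with a difference of 0.83 ± 0.23 SE on the log2 scale (limma, adjusted p = 0.101), and Isg15 had 0.81 ± 0.42 (adjusted p = 0.261). Trim25, a ligase that activates the RNA sensor RIG-I, differed little, with 0.05 ± 0.16 for Irf4 KO blockade minus Irf4 KO IgG and 0.35 ± 0.16 for Irf4 KO IgG minus WT IgG (adjusted p = 0.253).

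The 2-5A synthetase family makes the messenger that activates RNase L, although mouse Oasl1 is known instead for restraining translation of Irf7. Oasl1 was at log2 10.25 and 10.77 in Irf4 KO blockade cells, 10.34 and 10.69 in Irf4 KO IgG cells and 9.22 and 8.43 in WT IgG cells. Both Irf4 KO groups lay wholly above WT and overlapped each other. On the log2 scale the difference was 1.69 ± 0.32 SE for Irf4 KO IgG minus WT IgG (limma adjusted p = 0.0651, the lowest of the members) and 1.68 ± 0.32 for Irf4 KO blockade minus WT IgG (adjusted p = 0.0817). Oas3 ran the other way between Irf4 KO IgG and WT, with 8.66 and 9.13 on the blockade arrays, 7.96 and 7.88 in Irf4 KO IgG cells and 9.38 and 8.42 in WT IgG cells. Its difference was -0.98 ± 0.33 for Irf4 KO IgG minus WT IgG (adjusted p = 0.168) and 0.98 ± 0.33 for Irf4 KO blockade minus Irf4 KO IgG (adjusted p = 0.136). Oas1a gave 0.66 ± 0.24 in the blockade comparison (adjusted p = 0.146), and Oasl2 gave 0.70 ± 0.57 there and 1.54 ± 0.57 for blockade minus WT IgG (adjusted p = 0.228).

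Among the sensors of nucleic acid, Zbp1, which detects Z-form nucleic acid and can start cell death, was at log2 12.06 and 12.26 in Irf4 KO blockade cells, 10.95 and 11.34 in Irf4 KO IgG cells and 12.32 and 11.41 in WT IgG cells. The Irf4 KO IgG arrays were the lowest on this probe. A further Zbp1 probe had unscaled intensities of 1436 and 1111 with blockade, 928 and 1994 in Irf4 KO IgG and 1511 and 969 in WT IgG. It was brightest on Irf4 KO IgG array 2. That array had the highest 75th percentile over all probes, 301, against 95.6 and 68.0 on the blockade arrays. These unscaled intensities thus do not give the order of the groups on the further probe. On the brighter Zbp1 probe the difference was 1.02 ± 0.32 SE for Irf4 KO blockade minus Irf4 KO IgG (limma adjusted p = 0.116). It was -0.72 ± 0.32 for Irf4 KO IgG minus WT IgG (limma adjusted p = 0.244). Ifih1, the RNA sensor MDA5, gave 0.58 ± 0.28 in the blockade comparison and Dhx58, the related regulator LGP2, 0.32 ± 0.31. All 3 tested sensors were wholly above Irf4 KO IgG with blockade, as were 34.0% of all genes. The sensors Eif2ak2 and Ddx60 were below the minimum level and are given as intensities at the end.

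Other regulators mostly had smaller differences. Xaf1, a promoter of apoptosis, was at 10.80 and 11.14 with blockade, 9.91 and 10.09 in Irf4 KO IgG and 10.90 and 9.70 in WT IgG, with a difference of 0.97 ± 0.39 SE for Irf4 KO blockade minus Irf4 KO IgG (limma adjusted p = 0.173). Stat2, part of the complex that binds the ISRE, gave 0.31 ± 0.26 in that comparison, Trim30a, an inhibitor of NF-κB signalling, 0.57 ± 0.34, the histone chaperone Daxx 0.16 ± 0.24 and Ifi35 0.10 ± 0.22. Ifi27l2a was at 16.92 and 16.87 on the blockade arrays, 16.49 and 16.62 in Irf4 KO IgG cells and 17.31 and 16.98 in WT IgG cells. No spot was marked as saturated on any array. The 3 groups of Ifi27l2a did not overlap on its brighter probe. The differences were -0.59 ± 0.15 for Irf4 KO IgG minus WT IgG (limma adjusted p = 0.105) and 0.34 ± 0.15 for Irf4 KO blockade minus Irf4 KO IgG (adjusted p = 0.202). A further Ifi27l2a probe, at a mean log2 of 7.02, lay below the minimum level. Its unscaled intensities were 111 and 124 with blockade, 141 and 174 in Irf4 KO IgG and 132 and 108 in WT IgG.

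Of the members that act on nucleotides or translation, Cmpk2, a mitochondrial nucleotide kinase, was at log2 8.87 and 9.17 in Irf4 KO blockade cells, 8.13 and 7.75 in Irf4 KO IgG cells and 9.29 and 8.07 in WT IgG cells. Rsad2 (viperin), its neighbour on chromosome 12, was at 8.72 and 8.68 with blockade, 7.69 and 8.32 in Irf4 KO IgG cells and 9.13 and 7.86 in WT IgG cells. Both were lowest on an Irf4 KO IgG array and highest on WT array 1. Irf4 KO blockade minus Irf4 KO IgG was 1.08 ± 0.40 SE for Cmpk2 (limma adjusted p = 0.155) and 0.70 ± 0.43 for Rsad2 (adjusted p = 0.324). Samd9l, which restricts translation, had the lowest value of the members in that comparison, -0.23 ± 0.25.

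Membrane and secreted products were mixed. Bst2 (tetherin), which holds budding virus at the cell surface, was at 12.48 and 12.76 in Irf4 KO blockade cells, 11.84 and 12.10 in Irf4 KO IgG cells and 12.46 and 11.40 in WT IgG cells. Rtp4 had 0.67 ± 0.36 SE for Irf4 KO blockade minus Irf4 KO IgG, close to the 0.65 ± 0.35 of Bst2, and Lgals3bp, a secreted protein that binds galectins, had 0.52 ± 0.22 (limma adjusted p = 0.196). Ifitm3, which blocks fusion of virus with endosomes, departed from these, at 8.91 and 9.32 with blockade, 8.58 and 9.69 in Irf4 KO IgG and 8.43 and 7.25 in WT IgG. Both Irf4 KO groups lay above WT, by 1.28 ± 0.50 with blockade (adjusted p = 0.253) and 1.29 ± 0.50 with IgG (adjusted p = 0.202). Irf4 KO IgG array 2, where Ifitm3 was highest, also had the highest summed neutrophil markers, 68574 against 2787 on Irf4 KO IgG array 1, and their part in the Ifitm3 value was not tested.

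The ADP-ribosyltransferases Parp9 and Parp14 and the ubiquitin ligase Dtx3l, which works in a complex with Parp9, had small differences between groups. Parp14 was at 11.47 and 11.36 in Irf4 KO blockade cells, 11.35 and 11.51 in Irf4 KO IgG cells and 11.31 and 11.32 in WT IgG cells. It was the sole member whose WT arrays differed by as little as 0.01. Parp9 gave 0.42 ± 0.30 SE and Dtx3l 0.15 ± 0.19 for Irf4 KO blockade minus Irf4 KO IgG, and both were below WT array 1 on WT array 2, by 0.94 and 0.53.

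Between Irf4 KO IgG and WT IgG all 5 gamma-induced GTPases were positive, with a median of 0.32, and 11 of 28 type I members were, with a median of -0.12. The difference between the arms was not tested. Without WT array 2 the counts were 3 of 5 GTPases (median 0.02) and 4 of 28 type I members, and without WT array 1 they were 5 of 5 and 23 of 28. Median centring gave 4 of 5 GTPases (median 0.02) and 9 of 28 type I members, and the 75th-percentile scale of all detected genes gave 0 of 5 and 3 of 34. Gbp2, which attacks the vacuoles of intracellular pathogens, was at log2 12.60 and 12.47 in Irf4 KO blockade cells, 11.83 and 11.94 in Irf4 KO IgG cells and 11.39 and 10.41 in WT IgG cells. The 3 groups of Gbp2 did not overlap, nor did those of Gbp3, which averaged 10.02 ± 0.09 with blockade, 9.53 ± 0.36 in Irf4 KO IgG and 8.69 ± 0.57 in WT IgG (SD, n = 2 each). For blockade minus WT IgG, Gbp2 gave 1.64 ± 0.31 SE (limma adjusted p = 0.0826) and Gbp3 1.33 ± 0.30 (adjusted p = 0.113). Without WT array 1, WT array 2 alone stood for its group, and the median over the 5 GTPases in this comparison was 0.91. Without WT array 2 that median was 0.18.

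The immunity-related GTPases Ifi47, Igtp and Irgm1 differed less. Igtp was at 13.60 and 13.90 with blockade, 13.45 and 13.73 in Irf4 KO IgG and 13.57 and 12.97 in WT IgG, and Irf4 KO blockade minus WT IgG was 0.48 ± 0.24 SE (limma adjusted p = 0.347). Ifi47 gave 0.43 ± 0.24 and Irgm1 0.38 ± 0.35 in that comparison. In Irf4 KO blockade minus Irf4 KO IgG all 5 GTPases were positive with a median of 0.24, against 24 of 28 and 0.58 for the type I members.

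Among the genes that carry the signal, none of 18 interferon genes with a probe reached the minimum level, so none was tested. Of the 18, 5 and 2 were well above background in Irf4 KO blockade cells, 12 and 14 in Irf4 KO cells given IgG, and 3 and 4 in WT IgG cells, beside the shares over all probes given above, which were also highest on the Irf4 KO IgG arrays. Ifng had intensities of 107 and 4.46 in Irf4 KO blockade cells, 98.2 and 260.4 in Irf4 KO IgG cells and 214 and 523 on the WT IgG arrays, the blockade array 2 value not being well above background. Ifng was thus brighter on WT array 2, where the gamma-induced GTPases were lower, in intensities that are not scaled between arrays. The receptors and kinases gave 0 calls of 7 tested in any comparison (limma). Of the 7, 4 had an unadjusted limma p under 0.05 for Irf4 KO IgG minus WT IgG (23.4% of all genes). The count was 2 for Irf4 KO blockade minus Irf4 KO IgG (28.5%) and 0 for Irf4 KO blockade minus WT IgG (19.2%). Ifnar1 had -0.95 ± 0.46 SE and Ifnar2 0.07 ± 0.17 for Irf4 KO blockade minus Irf4 KO IgG, and Ifngr1 had 0.03 ± 0.15. Ifngr2 was below the minimum.

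Of 9 signal transducers and interferon regulatory factors tested, 2 passed, both higher, in each Irf4 KO group against WT IgG. These were Irf4, above, and Irf8, a factor of myeloid and B cells that T cells also induce. Irf8 was at log2 11.14 and 11.24 in Irf4 KO blockade cells, 10.69 and 11.20 in Irf4 KO IgG cells and 9.62 and 9.29 in WT IgG cells. It rose by 1.73 ± 0.21 SE with blockade (limma adjusted p = 0.0372) and 1.50 ± 0.21 with IgG (adjusted p = 0.0421) relative to WT IgG, but the value with IgG turned to -1.19 on the array-median scale of all detected genes. Neither Irf8 difference passed without WT array 1 or without WT array 2 (limma adjusted p from 0.0945 to 0.1597). The difference with blockade did not pass without blockade array 1 or 2 either (adjusted p = 0.225 and 0.266), and that with IgG did not without Irf4 KO IgG array 2 (adjusted p = 0.0640). The summed B cell markers given above were also higher than in WT IgG cells on both Irf4 KO IgG arrays. On the blockade arrays these unscaled sums were higher by less, with 9 and 8 of the 14 markers not well above background. Of 3 B cell markers tested for blockade minus WT IgG, 1 was positive, and their median was -0.25. The part of B cells in the Irf8 values was not tested. Irf7, the main amplifier of type I signalling, followed the members, at 13.83 and 14.00 with blockade, 13.38 and 13.76 in Irf4 KO IgG and 13.69 and 12.49 in WT IgG, with a WT array 2 minus array 1 difference of -1.20. Irf1, a factor induced early by interferon gamma, had another pattern, at 13.07 and 12.96 with blockade, 13.08 and 12.97 in Irf4 KO IgG and 12.60 and 12.78 in WT IgG, WT array 2 being the higher one. Irf9 differed by 0.07 ± 0.23 for blockade minus WT IgG. Socs1, which inhibits the kinases, was at 10.51 and 10.55 with blockade, 10.56 and 10.96 in Irf4 KO IgG and 11.05 and 10.84 in WT IgG, a difference of -0.41 ± 0.17 SE for blockade minus WT IgG (limma adjusted p = 0.263). Of 8 inhibitors of interferon signalling tested, Socs1 among them, 0 passed in any comparison (limma). Of the 8, 1 had an unadjusted limma p under 0.05 for Irf4 KO IgG minus WT IgG (23.4% of all genes). The count was 1 for Irf4 KO blockade minus Irf4 KO IgG (28.5%) and 2 for Irf4 KO blockade minus WT IgG (19.2%).

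Interferon-induced genes outside the set showed the same split of the WT arrays in weaker form. Over all genes 51.3% were lower on WT array 2, with a median of -0.01. Of 55 other type I genes tested, 49 were lower on WT array 2, with a median of -0.43. Of 11 other gamma-induced GTPases, 9 were lower, with a median of -0.64, and of 12 other gamma-induced genes 9 were lower, with a median of -0.15. Over the 3 lists, which hold 78 genes, 8 (10.3%) were at least 2-fold lower there, against 1.04% of all genes. These 8 were Ifit3b, Tlr7, Phf11c, Tgtp2, Irf7, Gbp6, Ube2l6 and Phf11a. The receptors and kinases, by contrast, had a median of 0.17. None of these 78 genes passed in any comparison (limma). For Irf4 KO IgG minus WT IgG, 23.4% of all genes had an unadjusted limma p under 0.05. So had 8 of the 55 type I genes, 4 of the 11 GTPases and 1 of the 12 other gamma-induced genes. For Irf4 KO blockade minus Irf4 KO IgG the medians of the 3 lists were 0.11, 0.07 and -0.13, nearer to the value of all genes than to that of the members. Near-identical copies such as Ifit3 and Ifit3b, and the clustered Gbp and Oas genes, may share hybridisation.

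The other 6 members lay below the minimum level, from Ddx60 at a mean log2 of 6.38 to Eif2ak2 at 7.77, whereas the dimmest tested members were Rsad2 at 8.41 and Cmpk2 at 8.57. These 6 were left out of the fit of bright genes, although they enter the counts over 39 members above, and they are given here as intensities, since dim probes in general had more signal in the Irf4 KO IgG group. Eif2ak2, the RNA-dependent kinase that halts translation, had intensities of 233 and 135 in Irf4 KO blockade cells, 253 and 407 in Irf4 KO IgG cells and 152 and 215 in WT IgG cells. Ifit2 had 128 and 113 with blockade, 123 and 239 in Irf4 KO IgG and 98.8 and 117 in WT IgG. Oas2 had 208 and 182 with blockade, 249 and 362 in Irf4 KO IgG and 189 and 124 in WT IgG. All 3 were brightest on Irf4 KO IgG array 2. Ddx60, a helicase, had 96.8 and 52.6 with blockade, 131 and 90.2 in Irf4 KO IgG and 96.7 and 57.5 in WT IgG. Herc6, the ligase that joins Isg15 to proteins in mice, had 86.1 and 47.6 with blockade, 189 and 219 in Irf4 KO IgG and 64.1 and 62.0 in WT IgG. Ifi44 had 58.5 and 14.9 with blockade, 113 and 257 in Irf4 KO IgG and 138 and 111 in WT IgG, and was not well above background on blockade array 2. Of the 6, Ddx60, Herc6, Ifi44 and Oas2 were dimmer on WT array 2 than on WT array 1, in intensities that are not scaled between arrays.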

How the data were processed

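The data are 6 arrays, 2 a group, and the p-values measure the spread between these arrays. Per the file headers, the deposited intensity is the scanner's processed signal, linear, with background subtracted array by array and no scaling across arrays, from Agilent Feature Extraction 11.0.1.1 (9.1 in the submitters' processing notes). A deposited value table, the same intensity divided by 1 number per array, was an alternative input. Scanner flags in the deposited files removed unusable spots and said which probes were well above background.

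Log2 values were averaged over replicate spots, probes were named through RefSeq accessions (58.3% of probes matched), and the probe with the highest mean stood for its gene. Genes with a mean of at least 8 (an intensity of 256), 8582 in all, were quantile-normalised and fitted in 1 model of the 3 groups with limma 3.58.1 (lmFit and eBayes, R 4.3.3), leaving 3 residual degrees of freedom. Adjusted p-values follow Benjamini and Hochberg over all genes, with a threshold of 0.05. The fit was tested on simulated data. Levels of different probes are not compared. Named genes are every member with a probe, Irf4, a fixed set of pathway genes (1 is not reported here), and any gene of the other pathway lists that passed; marker lists are given by summed level. Probe positions are left out because the arrays were designed on another build than the reference. The members, lists and tests were chosen with earlier results of these data known. Arrays of different groups with the same number did not deviate together (correlations of 0.02, -0.20 and 0.03), so the numbers do not pair the samples.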

Additional observations from a re-analysis of the deposited data

How the results depend on the processing

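Having 2 arrays a group limits every value here, and the WT IgG arrays differ across the set. No member passed under cyclic loess, minimums of 7 or 9, normexp, the mean of probes, the deposited value table, the fit on 4 arrays, the replicate block or the slide row as a block (the last added after seeing the data). With median centring 1 member passed in Irf4 KO IgG minus WT IgG (Oasl1), against 271 of all 8582 genes. In Irf4 KO blockade minus Irf4 KO IgG 1 member passed (Ifi27l2a), against 630 of all 8582 genes.

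With all detected genes on the 75th-percentile scale, 15 members passed in Irf4 KO IgG minus WT IgG (median -0.99), all lower, and 30 in Irf4 KO blockade minus Irf4 KO IgG (median 1.50), all higher, against 27.4% and 27.9% of all genes in those directions and medians of 0.01 and -0.11. On the array-median scale 36 (median -2.66) and 38 (median 3.29) passed, against 52.3% and 52.5% of all genes in those directions with medians of -1.65 and 1.68, and Irf4 and Irf8 turned to -1.28 and -1.19 in Irf4 KO IgG minus WT IgG. The cause was not tested. Under the alternatives run on it, the median of array 2 minus array 1 stayed between 0.15 and 0.33 in Irf4 KO blockade cells. It stayed between 0.03 and 0.14 where Irf4 KO cells had IgG, whereas WT cells gave -0.98 to -0.71.

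Leaving out 1 array at a time, the median ranged from -0.46 (without WT array 2) to 0.34 (without WT array 1) for Irf4 KO IgG minus WT IgG. The range was 0.43 to 0.57 for Irf4 KO blockade minus Irf4 KO IgG. For Irf4 KO blockade minus WT IgG it was -0.028 (without WT array 2) to 0.88 (without WT array 1). The lone array is assumed to vary like the other groups.

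Over all genes, calls in Irf4 KO IgG minus WT IgG were 160, with 6 on the 4 arrays compared, 23 with the replicate block, 88 with slide row and 13 to 102 with 1 array left out. In Irf4 KO blockade minus Irf4 KO IgG they were 28, with 630 under median centring, 30 with the replicate block, 0 with slide row and 0 to 318 with 1 array left out, the highest without Irf4 KO IgG array 2. In Irf4 KO blockade minus WT IgG they were 95, with 0 on both scales of all detected genes, 54 with the replicate block, 32 with slide row and 0 to 15 with 1 array left out. Of the 28249 detected genes, the 75th-percentile and array-median scales called 16644 and 17978 in Irf4 KO IgG minus WT IgG. In Irf4 KO blockade minus Irf4 KO IgG these scales called 16612 and 17480. The slide as a block was not run, as all arrays share 1 slide.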
